A study of Mus musculus with 24 samples.

Results

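Livers of 6 mice fed a chimpanzee diet were set against livers of 6 mice fed pellets, 12 of the 24 liver arrays in the series. The 12 were chosen by their sample titles, and each diet had 3 mice in each of 2 processing batches. All were female NMR-1 laboratory mice that were 8 weeks old when the diets began, and livers were taken after 2 weeks. The pellets (ssniff R/M-H) were the feed on which the mice had grown up, and the chimpanzee diet was made of fruit, vegetables, raisins and plain yogurt, as eaten by chimpanzees in a zoo. The other 12 mice ate cooked cafeteria meals or fast food only, and they enter through the shared estimate of spread and as a further reference for the chimpanzee diet. The 2 foods differed in many components at the same time, so no component can be told apart from the others, and littermates had been spread over the diets without a label that links a mouse to its litter. The question was which liver genes are expressed at different levels on a plant-based diet and on standard feed.

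The liver makes cholesterol, bile acids, glucose and plasma proteins, and it adjusts these pathways to what is eaten. When cells are short of sterols, transcription factors of the SREBP family raise the genes of cholesterol synthesis, and when fatty acids reach the liver from fat stores, the nuclear receptor PPARA raises the genes of fatty acid oxidation. Feeding times and feed composition also act on the liver clock, on the folding of secreted proteins in the endoplasmic reticulum and on enzymes that break down amino acids and foreign compounds.

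All values are log2 expression of 1 array per mouse, and a difference is chimpanzee minus pellet with its standard error (SE), so that a difference of 1 is a factor of 2. Per diet, the lowest, median and highest of 6 mice are given where a gene is described in full. A gene was called when its adjusted p from limma was under 0.05, and only called genes are said to be higher or lower.

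The livers carried their defining markers. The mean of 11 hepatocyte markers, among them albumin (Alb) and transthyretin (Ttr), ran from 10.5 to 10.91 on the chimpanzee diet and from 10.53 to 10.9 on pellets, and 1 of the 11 (Hnf4a, described with gluconeogenesis) was called. RNA quality moved with diet. The difference between the 3' and 5' probe sets of beta-actin, which grows as RNA is degraded, was 1.08 ± 0.15 (SD, n = 6) on the chimpanzee diet and 0.754 ± 0.135 (SD, n = 6) on pellets, a difference of 0.325 (exact permutation test within batches, two-sided, p = 0.005, the smallest this design allows, adjusted p = 0.015 over 3 measures). It was 0.245 in batch 1 and 0.406 in batch 2. The same measure for pyruvate carboxylase was 3.537 ± 0.612 and 3.115 ± 0.236 (exact permutation p = 0.09, adjusted p = 0.135), with a difference of 0.00294 in batch 1 and 0.842 in batch 2. The 90th percentile of an array, a measure of its signal range, was 6.213 ± 0.317 and 6.319 ± 0.234 (exact permutation p = 0.155), and the lowest values were those of chimpanzee batch 2 replicates 1 (5.80) and 2 (5.88). Correlations between the 12 arrays ran from 0.9412 to 0.9944, and 0 arrays were identical. The part of RNA quality and signal range in the differences below was not tested. Of 109 called genes named by rule, 66 lost their call with the beta-actin difference as a covariate and 15 without the 2 chimpanzee arrays of low range, and the adjusted p of these fits is given beside the genes concerned. The covariate itself went with diet, from 0.8788 to 1.336 on the chimpanzee diet and from 0.6089 to 0.9809 on pellets. That fit therefore cannot fully separate the 2, and a call lost in it does not decide whether RNA quality made the difference. All 109 genes kept their sign in it.

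**Figure D1:**
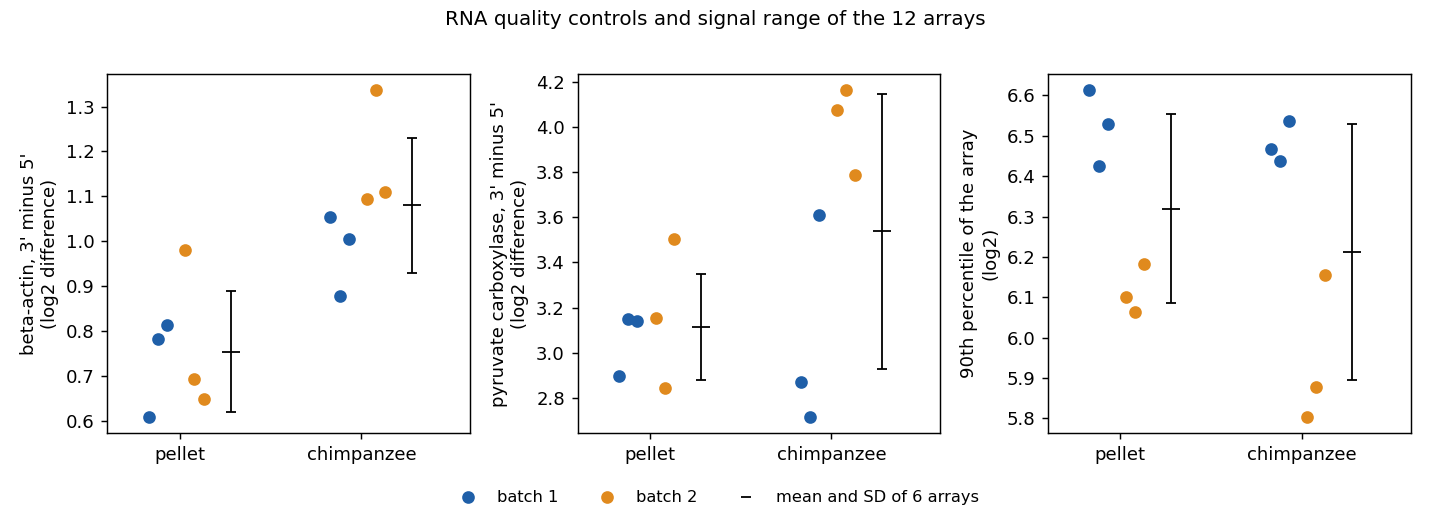
RNA quality controls and signal range of the 12 arrays: the 3' minus 5' difference of beta-actin and of pyruvate carboxylase (log2) and the 90th percentile of each array (log2), 1 point per array and diet (blue for batch 1, orange for batch 2), with lines at the mean and 1 SD over 6 arrays. The beta-actin difference averaged 1.08 on the chimpanzee diet and 0.754 on pellets, and the 2 arrays with the lowest 90th percentile (5.80 and 5.88) were chimpanzee arrays of batch 2.

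Of 13385 genes, 1387 (10.4%) were called between the diets. On the chimpanzee diet 392 genes (2.93%) were higher and 995 (7.43%) were lower, and all 1387 differed in the same direction in both batches. The calls were made on both batches together, which favours such agreement, so it is not an independent check. A factor of 2 or more was reached by 161 called genes, 50 higher and 111 lower. The 6 mice of one diet all lay above the 6 of the other for 427 genes (3.19% of those tested), of which 402 were called. A test of whether the diet difference depended on batch called 0 genes in limma, with 312 at an unadjusted p under 0.05. The split of the calls depended on the scaling of the arrays. Higher genes made up 28.3% of calls, but 44.1% after quantile normalization of the deposited values (796 higher, 1007 lower), 45.4% after cyclic loess (896 and 1079), 47% with the 90th percentile as a covariate (964 and 1087), 41.7% of 211 calls with the beta-actin difference as a covariate and 40.9% without the 2 chimpanzee arrays of low range (328 and 474). The median difference of all genes was -0.00439.

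Gene lists of 30 pathways describe where the calls lay. Every measured enzyme of cholesterol synthesis was lower on the chimpanzee diet, as were most interferon-induced genes and many proteasome subunits and genes of folding in the endoplasmic reticulum. Targets of PPARA, genes of the clock, cytosolic heat shock proteins and genes of gluconeogenesis were called almost only in the direction of higher expression. Subunits of the respiratory chain, ribosomal proteins and genes of cell division held no call, though 8 of the first and 2 of the last were called after cyclic loess. The counts are read against the 10.4% of all genes that were called, 2.93% higher and 7.43% lower. For every list named here as lower or higher, the pellet mean lay beyond the means of all other diets. In the order pellets, chimpanzee, cafeteria and fast food, cholesterol synthesis averaged 8.682, 7.237, 7.901 and 7.586, and PPARA targets 7.825, 8.386, 8.464 and 8.738. Folding genes averaged 7.955, 7.696, 7.559 and 7.56, and clock genes 5.348, 5.666, 5.686 and 5.666. These shifts are thus not particular to the chimpanzee diet.

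**Figure D2:**
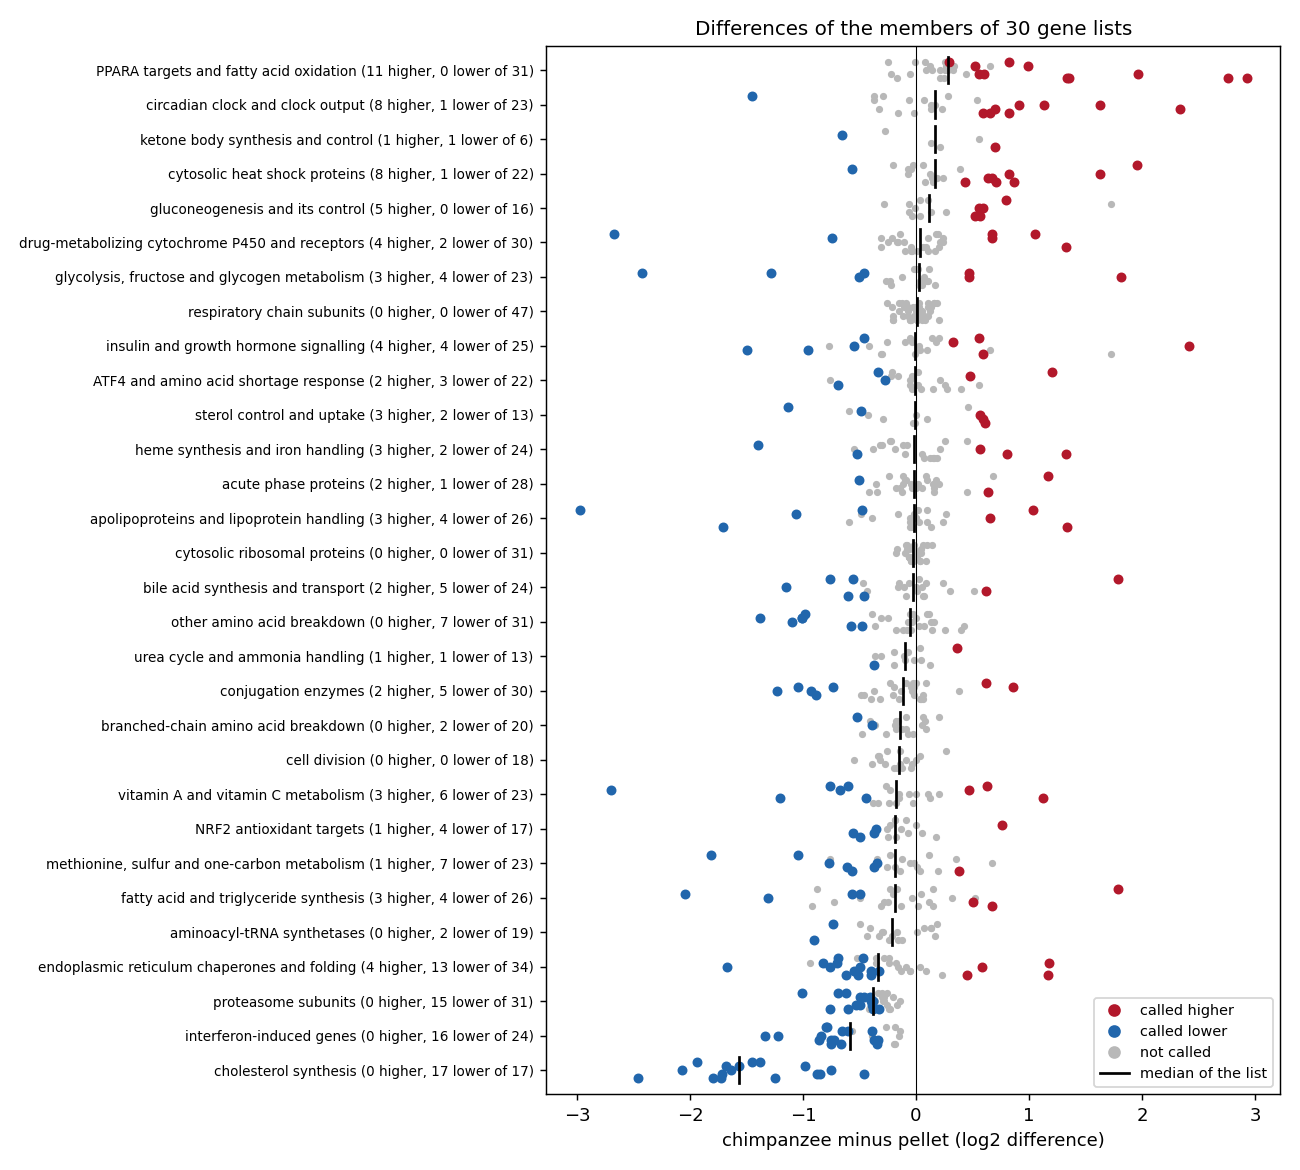
The difference between chimpanzee and pellet diet (log2, x axis) of each measured member of 30 gene lists (y axis), with called members in red (higher) or blue (lower), others in grey and a black bar at the list median. Cholesterol synthesis lies farthest to the left with all 17 members called lower, and PPARA targets farthest to the right with 11 of 31 called higher.

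Among single genes, the largest increases were in lipid and hormone metabolism. Cyp4a14, a fatty acid hydroxylase of the PPARA response, read 2.88, 3.21 and 4.01 on pellets (lowest, median and highest of 6 mice) and 4.20, 6.57 and 7.54 on the chimpanzee diet, a difference of 2.93 ± 0.41 (adjusted p = 5.2e-05). Vnn1, the pantetheinase vanin 1, read 2.97, 3.51 and 4.11 against 4.52, 6.27 and 7.63 (2.76 ± 0.56, adjusted p = 0.00197). The 6 and 6 mice did not overlap for either gene, and the pellet means of both were less than 1 above 3.147, the level of the filter on low values, where background can compress a difference.

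Genes of steroid and thyroid hormone metabolism followed. Cyp17a1, which converts progestagens to androgens, read 3.99, 4.24 and 4.85 on pellets and 5.21, 7.46 and 7.85 on the chimpanzee diet (2.62 ± 0.48, adjusted p = 0.000783). Dio1, the deiodinase that activates thyroid hormone, read 3.76, 4.41 and 4.96 against 5.40, 7.14 and 7.77 (2.45 ± 0.42, adjusted p = 0.000428). Again the diets did not overlap for these genes, and Cyp17a1 varied more among chimpanzee mice than among pellet mice. Mup10, a major urinary protein whose probes may read near-identical relatives, read 5.25, 6.72 and 7.22 against 7.71, 9.13 and 9.49 (2.42 ± 0.47, adjusted p = 0.00122), without overlap. In the fit with the beta-actin covariate, Cyp17a1 (adjusted p = 0.159) and Mup10 (0.179) were not called and Dio1 was.

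Regulators of signalling, metabolism and protein quality completed the 12 largest increases. Rgs16, a brake on G protein signalling, read 4.57, 6.45 and 7.68 on pellets and 8.01, 8.54 and 8.79 on the chimpanzee diet (2.19 ± 0.57, adjusted p = 0.0135), so it spread over a wide range on pellets and a narrow one on the chimpanzee diet. Its adjusted p was 0.0598 without the 2 chimpanzee arrays of low range, and 0.837 with the beta-actin covariate, where its difference was 0.80. Ppp1r3b, which directs a phosphatase to glycogen and so favours glycogen storage, read 6.63, 7.48 and 7.91 against 8.84, 9.25 and 9.44 (1.82 ± 0.14, adjusted p = 2.86e-08). Lpin1, a phosphatidate phosphatase that also coactivates PPARA, read 6.24, 6.79 and 7.38 against 7.49, 8.74 and 9.29 (1.79 ± 0.43, adjusted p = 0.00836, but 0.0721 without the 2 arrays of low range and 0.442 with the beta-actin covariate). Usp2, Acot1, Hsph1 and Cyp39a1 are described with their pathways.

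Decreases of similar size fell on lipid handling, retinoid metabolism and drug metabolism. Fabp5, a carrier of fatty acids in the cytosol, read 10.63, 11.02 and 11.21 on pellets and 6.71, 8.28 and 8.94 on the chimpanzee diet, 7.86-fold lower (-2.97 ± 0.38, adjusted p = 1.62e-05). Rdh11, a retinal reductase, read 7.58, 7.98 and 8.39 against 4.98, 5.04 and 6.04 (-2.70 ± 0.34, adjusted p = 1.56e-05). For both genes the highest chimpanzee mouse lay more than 1 below the lowest pellet mouse. Cyp2b10, the classical target of the xenobiotic receptor CAR, read 5.95, 7.07 and 7.99 against 4.27, 4.37 and 4.61, so that the chimpanzee mice lay within a narrow range (-2.67 ± 0.25, adjusted p = 2.59e-07).

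Other large decreases were spread over transport and storage. Ppp1r3c, a relative of Ppp1r3b that also targets the phosphatase to glycogen, read 7.75, 7.97 and 8.43 on pellets and 4.41, 5.95 and 6.44 on the chimpanzee diet (-2.42 ± 0.35, adjusted p = 6.32e-05), opposite in direction to its relative. Aqp8, a water channel of the bile canaliculus, read 9.45, 9.93 and 10.23 against 7.20, 7.59 and 8.30 (-2.19 ± 0.20, adjusted p = 1.49e-07). Cldn1, a protein of tight junctions, read 6.48, 6.80 and 7.59 against 3.99, 4.95 and 5.16 (-2.19 ± 0.25, adjusted p = 3.03e-06). The groups did not overlap for any of the 3, and each lay apart in both batches, with -2.10 and -2.74 for Ppp1r3c, -2.55 and -1.83 for Aqp8 and -2.14 and -2.23 for Cldn1 in batches 1 and 2. Ethe1, a mitochondrial enzyme of sulfide breakdown, read 8.43, 8.79 and 9.29 against 6.53, 6.97 and 7.57 (-1.81 ± 0.15, adjusted p = 9.75e-08). Of these 4 genes, Ppp1r3c missed the threshold in the beta-actin fit (adjusted p = 0.0628).

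**Figure D3:**
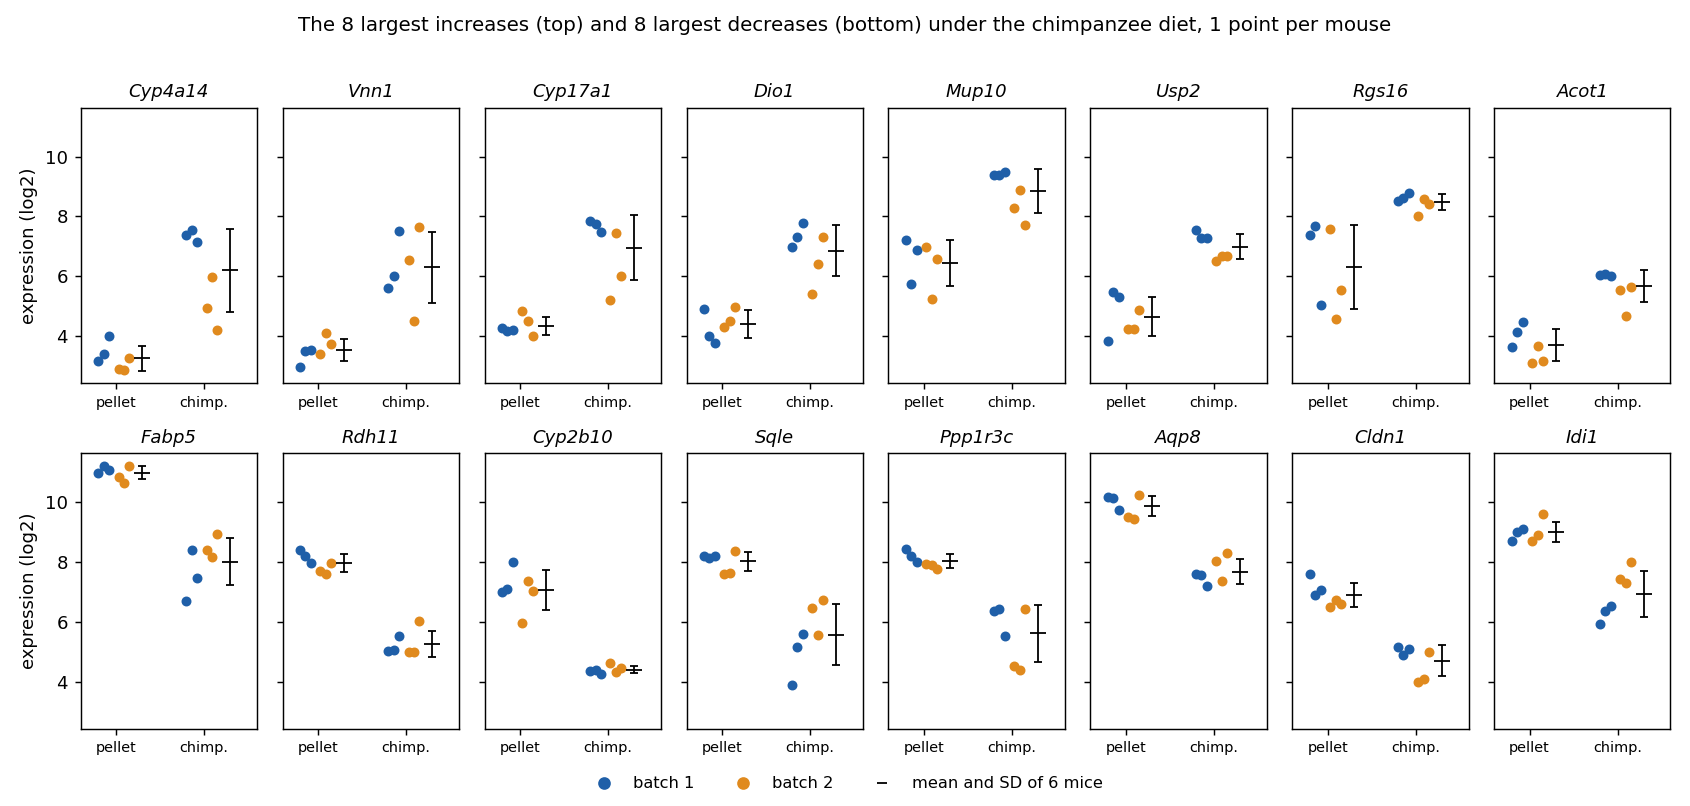
Expression (log2) of the 8 genes with the largest increases and the 8 with the largest decreases on the chimpanzee diet, 1 point per mouse (blue for batch 1, orange for batch 2), with lines at each diet's mean and 1 SD over 6 mice. The 6 chimpanzee mice lie apart from the 6 pellet mice in all 16 genes.

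Cholesterol synthesis was lower along its whole length. All 17 measured enzymes were called lower on the chimpanzee diet, with a median difference of -1.57 against -0.00439 over all genes and a range from -2.46 to -0.46. In the early part of the pathway, Hmgcs1, which makes the precursor of mevalonate, read 10.93, 10.99 and 11.48 on pellets and 8.68, 9.36 and 9.76 on the chimpanzee diet (-1.79 ± 0.29, adjusted p = 0.00023). The kinases and the decarboxylase of mevalonate differed by -0.46 ± 0.11 (Mvk), -1.68 ± 0.29 (Pmvk) and -1.25 ± 0.21 (Mvd). Mvk, the smallest difference of the list, is the member whose ranges overlapped, from 5.82 to 6.06 on pellets and from 4.98 to 5.90 on the chimpanzee diet.

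In the middle of the pathway, the sterol skeleton is built and closed. Idi1, the isomerase of the isoprene unit, read 8.68, 8.94 and 9.60 on pellets and 5.93, 6.92 and 8.01 on the chimpanzee diet (-2.07 ± 0.43, adjusted p = 0.00232). Fdps, which joins isoprene units, read 9.86, 10.27 and 10.83 against 7.43, 8.33 and 9.05 (-1.93 ± 0.31, adjusted p = 0.00024). Sqle, the monooxygenase that commits squalene to sterols, read 7.61, 8.15 and 8.37 against 3.88, 5.58 and 6.71, a 5.48-fold decrease (-2.46 ± 0.47, adjusted p = 0.0012). Fdft1, which makes squalene, differed by -0.98 ± 0.17, and Lss, which closes the ring, by -1.57 ± 0.21 (adjusted p = 2.24e-05).

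The late enzymes, which trim lanosterol to cholesterol, differed by -1.72 to -0.75. Cyp51 differed by -1.72 ± 0.40, Msmo1 by -1.38 ± 0.29, Nsdhl by -1.64 ± 0.31, Tm7sf2 by -0.87 ± 0.18, Hsd17b7 by -0.84 ± 0.18 and Ebp by -0.75 ± 0.14. Sc5d, the desaturase near the end of the pathway, had a median of 10.33 on pellets and of 8.91 on the chimpanzee diet (-1.45 ± 0.22, adjusted p = 0.000122). Dhcr7, which carries out the last reduction, read 7.34, 7.74 and 7.99 against 5.53, 5.98 and 6.49 (-1.72 ± 0.24, adjusted p = 4.44e-05). The 2 diets did not overlap for either gene. All 17 members were called without any 1 mouse and without the 2 arrays of low range, and 16 were called after cyclic loess. With the beta-actin difference as a covariate 2 were called, Lss and Dhcr7, and the adjusted p of the others ran from 0.0506 (Sc5d) to 0.33 (Tm7sf2). Over all alternative runs, this one included, the difference ran from -2.137 to -1.449 for Hmgcs1 and from -2.855 to -1.485 for Idi1. It ran from -2.34 to -1.528 for Fdps, from -3.287 to -1.624 for Sqle and from -1.515 to -1.244 for Sc5d. Batch 2 alone called 0, and all 17 differences lay below 0 in it (median -1.21).

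**Figure D4:**
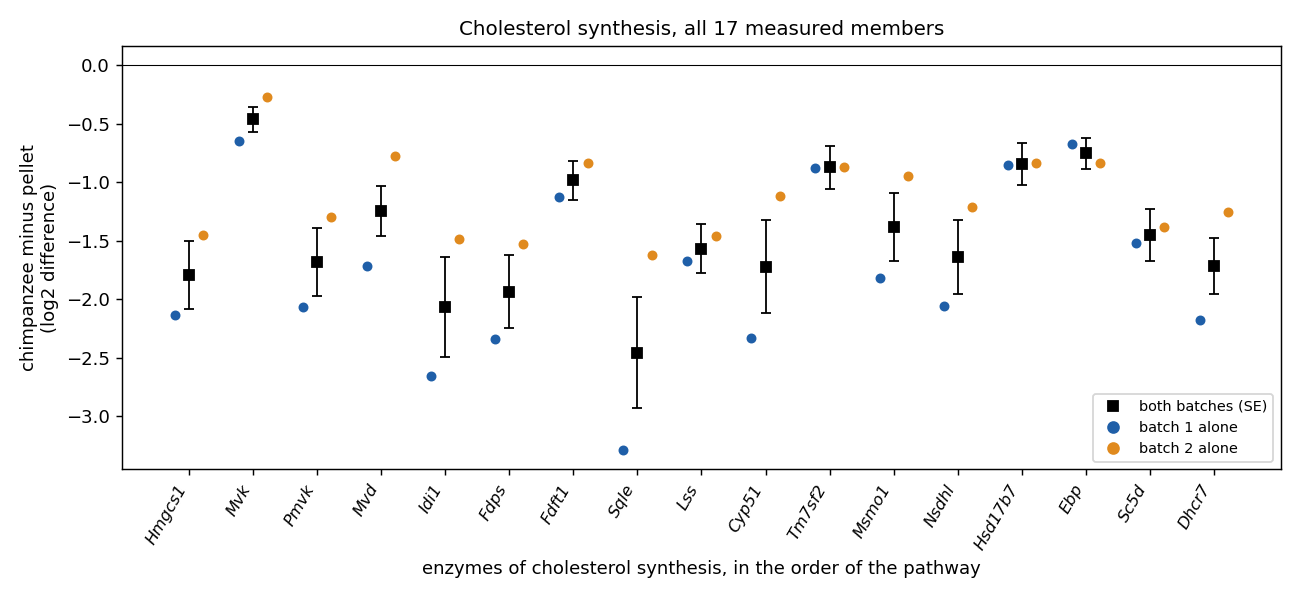
Differences between chimpanzee and pellet diet (log2) of the 17 measured enzymes of cholesterol synthesis in the order of the pathway, with black squares and SE for both batches, blue for batch 1 and orange for batch 2. All points lie below 0, from -2.46 for Sqle to -0.46 for Mvk.

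SREBP factors bind sterol elements together with factors at CCAAT boxes, so promoters of the lower genes were searched for both. RefSeq promoter windows (GRCm38.p6, 250 bases before to 50 after a start site) were at hand for 14 of the 17 genes, in 17 windows. The sterol element TCACCCCAC, on either strand, lay in 1 of these windows, against 0.551% of 32851 windows of the same length, and a CCAAT box lay in 14 of 17 (82.4%) against 37.4%, with at least 1 window for each of the 14 genes. A match is a stretch of letters, not a bound site. The CCAAT share was also high for called genes of folding in the endoplasmic reticulum. It was 78.6% of 14 windows of the lower and 100% of 3 windows of the higher genes of that list. The window with the sterol element was that of Hmgcs1, where it began 137 bases before the start, and the part of it around the match (chr13:119690164-119690272, plus strand) is shown with the element in capitals:
Hmgcs1: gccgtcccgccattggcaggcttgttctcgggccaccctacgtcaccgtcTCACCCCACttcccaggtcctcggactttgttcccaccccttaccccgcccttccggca

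Regulators of sterol levels did not move as one. Of 13 genes of sterol control and uptake, 3 were higher and 2 lower. Insig2, which holds SREBP in the endoplasmic reticulum, read 8.73, 9.22 and 9.69 on pellets and 7.25, 8.20 and 8.56 on the chimpanzee diet (-1.13 ± 0.19, adjusted p = 0.000324), and Scap, the escort of SREBP, was lower by a smaller amount (-0.49 ± 0.09, adjusted p = 0.00122). Srebf1, the SREBP gene of fatty acid synthesis, was higher (0.61 ± 0.16, adjusted p = 0.0122, but 0.0628 without the 2 arrays of low range). Srebf2, the SREBP gene of cholesterol synthesis, was not called (-0.30 ± 0.12, adjusted p = 0.134). The sterol exporters Abcg5 (0.59 ± 0.14, adjusted p = 0.00906) and Abcg8 (0.57 ± 0.17, adjusted p = 0.0329), which pump sterols including those of plants into bile, were both higher. With the beta-actin covariate 0 of the 13 were called, and the adjusted p was 0.29 for Insig2, 0.0827 for Scap, 0.175 for Srebf1, 0.0915 for Abcg5 and 0.523 for Abcg8.

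Fatty acid and triglyceride synthesis was split, with 3 genes higher and 4 lower of 26. Both enzymes described here that make acetyl-CoA were lower. Acss2, which makes acetyl-CoA from acetate, read 9.58, 10.22 and 10.51 on pellets and 7.93, 8.02 and 8.34 on the chimpanzee diet (-2.04 ± 0.27, adjusted p = 3.06e-05), and Acly, which makes it from citrate, read 9.69, 10.43 and 10.65 against 8.49, 8.98 and 9.62 (-1.31 ± 0.24, adjusted p = 0.000803). Neither gene overlapped between the diets. Elovl5, which lengthens unsaturated fatty acids (-0.56 ± 0.14), and Gpam, the first enzyme of triglyceride assembly (-0.50 ± 0.15), were lower by less. The higher members act late in triglyceride assembly: Lpin1, its relative Lpin2 (0.68 ± 0.14, adjusted p = 0.00237) and Dgat2 (0.50 ± 0.10, adjusted p = 0.0012), which adds the last fatty acid. Acss2 was called in the beta-actin fit as well, but Acly (adjusted p = 0.121), Elovl5 (0.304), Gpam (0.417), Lpin2 (0.343) and Dgat2 (0.285) were not.

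PPARA targets and enzymes of fatty acid oxidation were higher in 11 of 31 cases and lower in 0, with a median of 0.28. Besides Cyp4a14 and Vnn1, Acot1, a thioesterase that frees fatty acids from coenzyme A, read 3.12, 3.65 and 4.48 on pellets and 4.67, 5.83 and 6.08 on the chimpanzee diet (1.97 ± 0.30, adjusted p = 0.000154). Pex11a, which promotes the division of peroxisomes, read 6.33, 6.60 and 6.80 against 7.61, 7.93 and 8.18 (1.35 ± 0.12, adjusted p = 1.49e-07). Eci2, an isomerase for unsaturated fatty acids, read 7.87, 8.02 and 8.37 against 8.87, 9.04 and 9.31 (0.99 ± 0.10, adjusted p = 1.02e-06). The diets did not overlap for these 3 genes, and the differences were close to equal in the batches (1.31 and 1.40 for Pex11a, 0.99 and 1.00 for Eci2).

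Other members of the list differed by less. Angptl4, an inhibitor of lipoprotein lipase, was higher by 1.34 ± 0.22 (adjusted p = 0.0003). Cpt1a, the gate of fatty acids into mitochondria (0.56 ± 0.10), the carnitine carrier Slc25a20 (0.52 ± 0.13), the peroxisomal thiolase Acaa1b (0.60 ± 0.10), Acot4 (0.82 ± 0.25) and Acadm (0.29 ± 0.09) made up the rest of the 11. The 20 others did not pass. With cyclic loess 21 of the 31 were higher, with the beta-actin covariate 6, and 0 were lower in either. The covariate took the calls of Angptl4 (adjusted p = 0.17), Cpt1a (0.21), Slc25a20 (0.0635), Acot4 (0.284) and Acadm (0.143), and without the 2 arrays of low range Acot4 (0.0519) and Acadm (0.199) were not called. A direct repeat of AGGTCA with 1 base between the copies, the kind of element PPARA binds, was found in 0 of the 8 RefSeq windows of the higher genes and in 0.0396% of all windows.

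Lipid transport genes moved in both directions, 3 higher and 4 lower of 26. Apoa4, an apolipoprotein of gut and liver, read 9.30, 9.75 and 10.31 on pellets and 10.49, 10.80 and 11.08 on the chimpanzee diet (1.03 ± 0.17, adjusted p = 0.000221), without overlap. Pltp, which moves phospholipids between lipoproteins, read 7.70, 8.45 and 9.50 against 6.57, 6.76 and 7.28 (-1.70 ± 0.30, adjusted p = 0.000459), also without overlap. Lpl, the lipase of circulating triglycerides, was lower by 1.06 on this scale (-1.06 ± 0.18, adjusted p = 0.000465). Of 6 genes of ketone body synthesis and control, 1 was higher, the monocarboxylate carrier Slc16a7 (0.70 ± 0.12, adjusted p = 0.000421), and 1 was lower, its relative Slc16a1 (-0.65 ± 0.20, adjusted p = 0.0348). The beta-actin fit did not call Lpl (adjusted p = 0.132) and Slc16a1 (0.916), and the fit without the 2 arrays of low range did not call Slc16a1 (0.164).

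Bile acid genes were called in 7 of 24 cases, 2 higher and 5 lower. Cyp39a1, which hydroxylates a side-chain oxysterol on the way to bile acids, read 3.44, 3.98 and 4.97 on pellets and 4.21, 6.03 and 6.86 on the chimpanzee diet (1.79 ± 0.29, adjusted p = 0.00024), with 1 chimpanzee mouse inside the pellet range. Cyp8b1, which decides how much cholic acid is made, was lower (-1.15 ± 0.32, adjusted p = 0.0227). Hsd3b7, of the common first steps, had medians of 10.35 on pellets and 9.54 on the chimpanzee diet (-0.76 ± 0.11, adjusted p = 6.72e-05), and Acox2, which shortens the side chain, differed by -0.55 ± 0.12 (adjusted p = 0.00271). Of the transporters of the canaliculus, the phospholipid flippase Abcb4 was higher (0.62 ± 0.11, adjusted p = 0.00066) and the bile salt pump Abcb11 was lower (-0.46 ± 0.14, adjusted p = 0.043). Klb, the coreceptor of the gut hormone FGF15, was the fifth lower member (-0.60 ± 0.14, adjusted p = 0.00504). With the beta-actin covariate Cyp39a1 and Hsd3b7 stayed called, while Cyp8b1 (adjusted p = 0.289), Acox2 (0.428), Abcb4 (0.0506), Abcb11 (0.216) and Klb (0.491) did not, and Cyp8b1 (0.061), Abcb11 (0.148) and Klb (0.063) also missed the threshold without the 2 arrays of low range.

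Clock genes were higher in 8 of 23 cases and lower in 1. Usp2, a ubiquitin protease whose transcript cycles with the clock, read 3.84, 4.55 and 5.46 on pellets and 6.50, 6.98 and 7.55 on the chimpanzee diet, 5.05-fold higher (2.34 ± 0.21, adjusted p = 1.49e-07). Of the clock repressors, 3 were higher, Per1 by 0.70 ± 0.14 (adjusted p = 0.00196), Per2 by 1.14 ± 0.20 (adjusted p = 0.000626) and Cry1 by 0.65 ± 0.16 (adjusted p = 0.00759). Cry1 lay at or below the low-value filter level on pellets (2.72, 2.93 and 3.08) and reached 3.10, 3.53 and 4.21 on the chimpanzee diet, so its difference may be compressed. Other repressors of the list were not called, Per3 (-0.37 ± 0.22, adjusted p = 0.344), Cry2 (0.13 ± 0.16, adjusted p = 0.715), Ciart (0.54 ± 0.18, adjusted p = 0.0619), Bhlhe40 (-0.33 ± 0.14, adjusted p = 0.173) and Bhlhe41 (0.13 ± 0.09, adjusted p = 0.43, near the filter level).

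The gene that was lower codes for a repressor of another arm of the clock. Nr1d1, known as REV-ERB alpha, read 5.64, 6.29 and 6.78 on pellets and 4.33, 4.81 and 5.28 on the chimpanzee diet (-1.45 ± 0.21, adjusted p = 9.16e-05), without overlap. Of the output factors of the PAR bZIP family 2 were higher, Tef by 0.60 ± 0.11 (adjusted p = 0.000797) and Hlf by 0.82 ± 0.14 (adjusted p = 0.000459), and Dbp was not called (-0.37 ± 0.18, adjusted p = 0.244). Noct, a clock-controlled phosphatase (1.62 ± 0.36, adjusted p = 0.00397), and Wee1, a kinase that holds back cell division (4.68, 5.26 and 5.66 against 5.73, 6.21 and 6.36, 0.92 ± 0.16, adjusted p = 0.00044), completed the 8. The time of day of sampling was not in the sources used here, so a difference in clock phase between the groups was not tested. With the beta-actin covariate Usp2, Hlf, Wee1 and Nr1d1 were called, and the adjusted p was 0.423 for Per1, 0.0879 for Per2, 0.442 for Cry1, 0.201 for Tef and 0.132 for Noct.

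The clock activators bind the E-box CACGTG, and their output factors the D-box TTATGTAA. RefSeq windows were at hand for 6 of the 8 higher genes, in 8 windows. An E-box lay in 4 of the 8 (50%), those of Cry1, Per1 and Tef, against 7.15% of all windows, and a D-box in 0 against 0.938%. By gene, an E-box was found in 3 of 6, against 8.09% of all genes with a window. Clock genes that were not called were not searched, so this share cannot be tied to higher expression rather than to the list. The E-boxes began 60 bases before the start in Cry1 and 166 before in Per1. Parts of these windows, from chr10:85185059-85185164, minus strand (Cry1) and chr11:69098733-69098838, plus strand (Per1), are shown with the E-box in capitals:
Cry1: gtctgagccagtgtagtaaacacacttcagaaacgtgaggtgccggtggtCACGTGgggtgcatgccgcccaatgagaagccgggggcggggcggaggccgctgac
Per1: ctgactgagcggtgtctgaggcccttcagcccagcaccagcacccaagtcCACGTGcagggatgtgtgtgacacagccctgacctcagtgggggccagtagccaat

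Of 34 genes of folding in the endoplasmic reticulum 13 were lower and 4 higher, with a median of -0.34. Sdf2l1, a partner of the chaperone BiP, read 5.77, 6.24 and 6.69 on pellets and 4.02, 4.54 and 5.01 on the chimpanzee diet (-1.67 ± 0.19, adjusted p = 4.85e-06). Pdia4, a disulfide isomerase, read 7.78, 7.96 and 8.19 against 7.02, 7.29 and 7.49 (-0.69 ± 0.11, adjusted p = 0.000164), and Fkbp11, a prolyl isomerase, 5.85, 5.93 and 6.36 against 4.72, 5.22 and 5.78 (-0.82 ± 0.15, adjusted p = 0.000544). In none of the 3 did the diets overlap.

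Other chaperones were lower by smaller amounts, Pdia3 by -0.70 ± 0.13, Pdia6 by -0.62 ± 0.12, Calr by -0.55 ± 0.11 and Hsp90b1 by -0.33 ± 0.11 (adjusted p = 0.049). The 4 higher genes were Herpud1, Syvn1, Atf6 and Dnajb9. Herpud1, of the complex that degrades misfolded proteins, read 8.98, 9.45 and 9.55 on pellets and 10.07, 10.61 and 10.97 on the chimpanzee diet (1.17 ± 0.13, adjusted p = 3.03e-06), without overlap. Syvn1, the ubiquitin ligase of that complex, was higher by 0.59 ± 0.15 (adjusted p = 0.0123), Atf6, a sensor of unfolded proteins, by 0.45 ± 0.12 (adjusted p = 0.0196) and Dnajb9, a cochaperone, by 1.18 ± 0.21 (adjusted p = 0.000559). Other genes of the disposal of misfolded proteins were lower, Derl2 (-0.40 ± 0.12, adjusted p = 0.0264) and Edem1 (-0.52 ± 0.14, adjusted p = 0.022), or not called, Sel1l (0.23 ± 0.14, adjusted p = 0.371), Derl1 (-0.35 ± 0.12, adjusted p = 0.0561), Derl3 (-0.05 ± 0.11, adjusted p = 0.869) and Os9 (-0.05 ± 0.11, adjusted p = 0.857). The count of lower members was 6 without the 2 arrays of low range and 1 with the beta-actin covariate, that of higher members 4 and 2, and in the second fit Sdf2l1, Herpud1 and Dnajb9 were called. Without the 2 arrays of low range Hsp90b1 (adjusted p = 0.169), Derl2 (0.0871) and Edem1 (0.21) were not called.

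The stress element of these genes, CCAAT followed after 9 bases by CCACG, was searched on both strands. It lay in the window of 1 of 3 higher genes (Syvn1) and of 3 of 12 lower genes (Calr, Hsp90b1 and Pdia6) with RefSeq windows. Among all genes with a window the share was 0.137% (0.119% of all windows), and each match contains a CCAAT box by its own letters. Genes called in opposite directions thus share these letters. Folding genes that were not called were not searched, so this share cannot be tied to the calls rather than to the list. Hsp90b1 holds 2 copies, which begin 212 and 107 bases before the start. Parts of the windows, from chr19:6046482-6046575, plus strand (Syvn1), chr12:17266441-17266559, plus strand (Pdia6) and chr10:86705483-86705694, minus strand (Hsp90b1), are shown with the outer letters of the element in capitals:
Syvn1: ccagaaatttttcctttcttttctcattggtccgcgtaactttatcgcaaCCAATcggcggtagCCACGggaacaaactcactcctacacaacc
Pdia6: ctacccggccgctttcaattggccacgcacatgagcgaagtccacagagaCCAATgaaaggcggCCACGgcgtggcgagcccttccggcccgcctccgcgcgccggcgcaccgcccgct
Hsp90b1: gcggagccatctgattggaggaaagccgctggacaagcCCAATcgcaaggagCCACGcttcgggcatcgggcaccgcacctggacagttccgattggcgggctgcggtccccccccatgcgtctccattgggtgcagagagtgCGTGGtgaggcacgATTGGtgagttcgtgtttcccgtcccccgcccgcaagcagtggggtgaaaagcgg

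Of 22 cytosolic heat shock proteins and cochaperones 8 were higher and 1 lower. Hsph1, a nucleotide exchange factor of HSP70, read 4.56, 5.30 and 6.47 on pellets and 5.86, 7.24 and 8.35 on the chimpanzee diet (1.96 ± 0.25, adjusted p = 1.44e-05). Hspa1b, an inducible HSP70 whose probes may also read its near-identical neighbour gene, read 4.94, 5.24 and 5.99 against 5.31, 7.23 and 7.96 (1.63 ± 0.30, adjusted p = 0.000885). Both overlapped between the diets although their differences were close to equal in the batches (1.97 and 1.95, and 1.75 and 1.52). Fkbp5, a cochaperone induced by glucocorticoids, was higher by 0.86 ± 0.15 (adjusted p = 0.000395) and the cochaperone Dnaja1 by 0.64 ± 0.13 (adjusted p = 0.0016). The lower member was Cct3, a subunit of the cytosolic chaperonin (-0.57 ± 0.14, adjusted p = 0.0106). Fkbp5 (adjusted p = 0.122) and Cct3 (0.659) were not called with the beta-actin covariate, nor was Cct3 (0.114) without the 2 arrays of low range.

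Proteasome subunits were lower in 15 of 31 cases, higher in 0, and all 31 differences lay below 0 (median -0.38). Psmd14, the lid subunit that removes ubiquitin, read 7.20, 7.51 and 7.92 on pellets and 5.69, 6.67 and 7.23 on the chimpanzee diet (-1.01 ± 0.17, adjusted p = 0.000437). Psma1 (-0.76 ± 0.14, adjusted p = 0.000717) and Psma5 (-0.69 ± 0.15, adjusted p = 0.00263), of the outer ring of the core, and Psmb2, of the inner ring (-0.50 ± 0.11, adjusted p = 0.00339), were lower as well. This list depended on single mice: 9 subunits were called without chimpanzee batch 2 replicate 2, without pellet batch 1 replicate 1 or without pellet batch 2 replicate 3. The 2 arrays of low range left out gave 5, and the beta-actin covariate 0, with 27 of 31 below 0.

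Interferon-induced genes were lower in 16 of 24 cases and higher in 0, and all 24 differences lay below 0 (median -0.59). The mean over the 24 genes was 4.99 ± 0.17 (SD, n = 6) on the chimpanzee diet and 5.56 ± 0.16 (SD, n = 6) on pellets, and its ranges, 4.79 to 5.23 and 5.32 to 5.79, did not overlap. Psmb9, a subunit of the immunoproteasome, read 6.44, 6.90 and 7.12 on pellets and 5.10, 5.63 and 6.14 on the chimpanzee diet (-1.22 ± 0.19, adjusted p = 0.000161). The interferon-inducible GTPases Ifi47 (-0.86 ± 0.14, adjusted p = 0.000193), Gbp7 (-0.78 ± 0.15, adjusted p = 0.00139) and Igtp (-0.72 ± 0.15, adjusted p = 0.00221) did not overlap between the diets. Usp18, a brake on interferon signalling, had the largest difference (-1.34 ± 0.29, adjusted p = 0.00338) and lay within 1 of the filter level on the chimpanzee diet (3.44, 3.61 and 4.32), against 4.49, 5.01 and 5.51 on pellets. Without the 2 arrays of low range 7 were called and with the beta-actin covariate 1 (Psmb9), with adjusted p of 0.0546 for Ifi47, 0.125 for Gbp7, 0.33 for Igtp and 0.117 for Usp18.

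**Figure D5:**
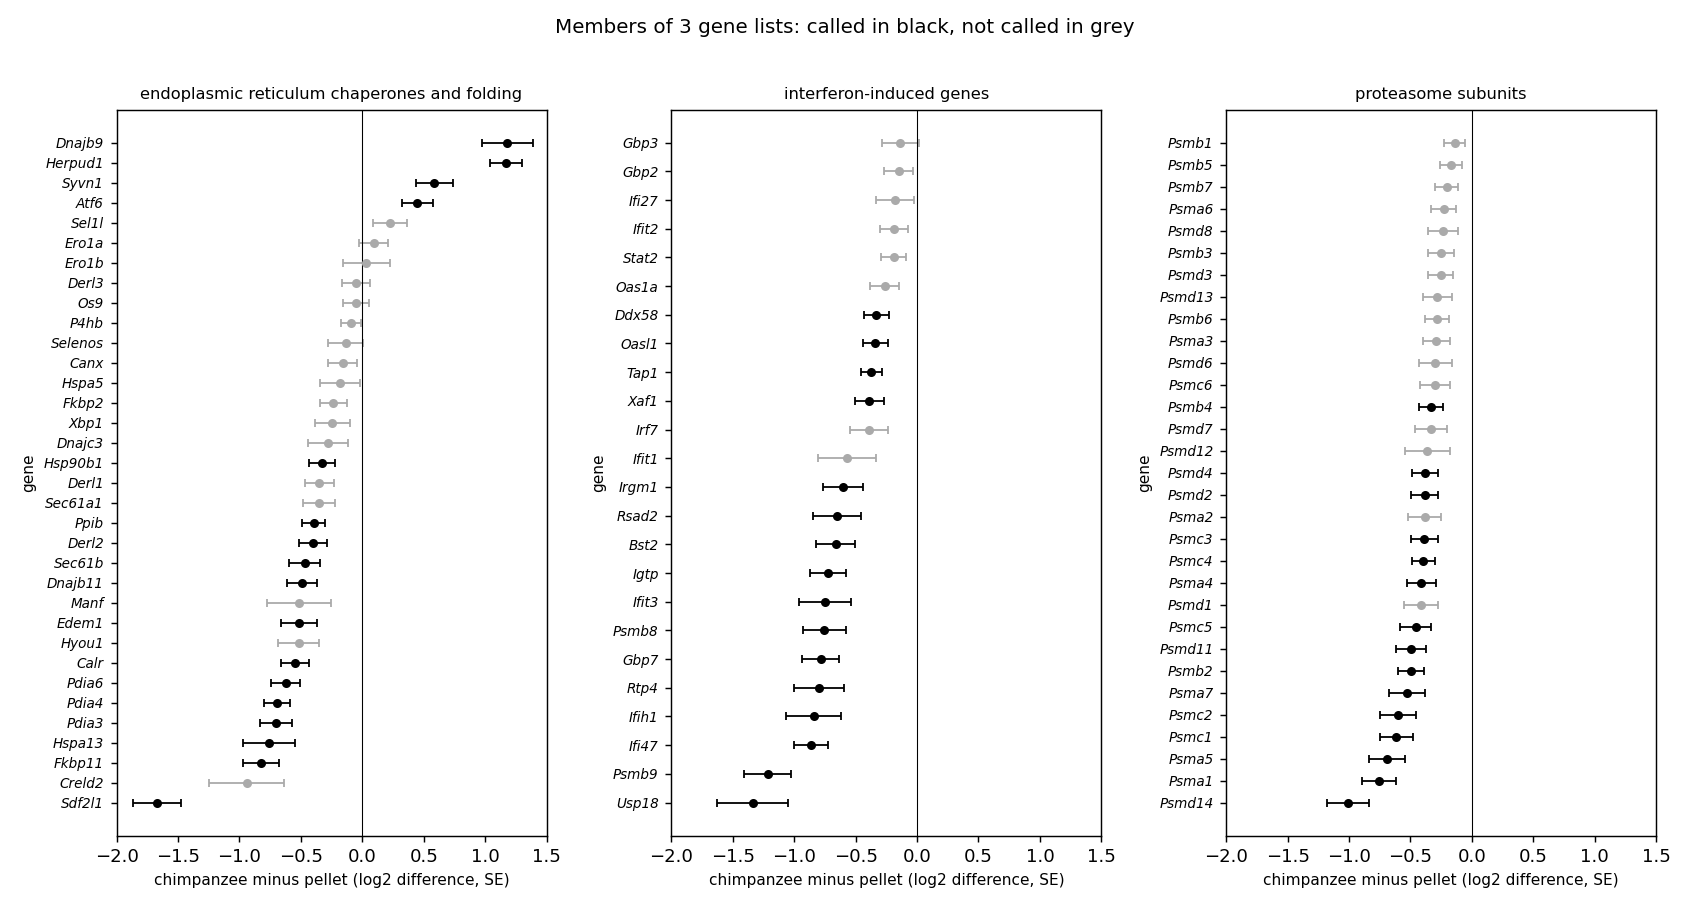
Differences between chimpanzee and pellet diet (log2, x axis) with SE for every measured gene (y axis) of endoplasmic reticulum folding, interferon-induced genes and proteasome subunits, called genes in black and others in grey. All 24 interferon-induced genes and all 31 proteasome subunits lie below 0, and the folding list has 4 called genes above 0 and 13 below.

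Genes of the cellular response to amino acid shortage were mixed, 2 higher and 3 lower of 22. Trib3, an inhibitory pseudokinase, was lower and near the filter level (-0.69 ± 0.12, adjusted p = 0.000334), and the transcription factor Cebpb was higher (1.20 ± 0.20, adjusted p = 0.000366), from 6.35, 7.03 and 7.18 on pellets to 7.82, 8.08 and 8.54. Atf4 itself differed by -0.27 ± 0.07 (adjusted p = 0.02, but 0.134 after cyclic loess) and Ddit3, a factor downstream of it, by 0.48 ± 0.14 (adjusted p = 0.0278). Of 19 aminoacyl-tRNA synthetases, 2 were lower, Tars (-0.90 ± 0.16, adjusted p = 0.000659) and Lars (-0.73 ± 0.18, adjusted p = 0.0092), and 0 were higher. The share of synthetases called, 10.5%, was close to the 10.4% of all genes. The beta-actin fit called none of Trib3 (adjusted p = 0.0814), Cebpb (0.368), Atf4 (0.641), Ddit3 (0.0616), Tars (0.294) and Lars (0.231), and Lars (0.0859) and Atf4 (0.128) missed the threshold without the 2 arrays of low range. The element TGATGCAAT, bound by C/EBP and ATF factors, lay in 0 of the 5 RefSeq windows of the 5 called genes and in 0.192% of all windows.

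Enzymes that break down amino acids were lower where they were called. Of 31 genes outside the branched-chain pathway 7 were lower and 0 higher. Got1, the cytosolic aspartate transaminase, read 9.53, 9.94 and 10.52 on pellets and 7.85, 8.66 and 9.29 on the chimpanzee diet (-1.38 ± 0.22, adjusted p = 0.000247). Agxt, which removes glyoxylate with alanine, read 9.67, 9.77 and 9.97 against 8.35, 8.83 and 9.30 (-1.01 ± 0.15, adjusted p = 0.000126). Hal, the first enzyme of histidine breakdown, had medians of 9.65 and 8.73 (-0.98 ± 0.14, adjusted p = 9.46e-05), and Kynu, of tryptophan breakdown, 7.56, 7.72 and 8.44 against 6.33, 6.91 and 7.39 (-1.01 ± 0.17, adjusted p = 0.000334). None of these 4 overlapped. The other lower members were Gldc, of glycine breakdown (-1.10 ± 0.19), Amdhd1, a later enzyme of histidine breakdown (-0.58 ± 0.15), and Abat, of GABA breakdown (-0.47 ± 0.12). Kynu (adjusted p = 0.0763) and Abat (0.232) lost their call with the beta-actin covariate.

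The methionine and sulfur pathway was lower in 7 of 23 cases and higher in 1. Cbs, which commits homocysteine to cysteine, read 9.20, 9.37 and 9.70 on pellets and 8.00, 8.41 and 8.73 on the chimpanzee diet (-1.05 ± 0.14, adjusted p = 2.7e-05), and Bhmt, which returns homocysteine to methionine with betaine, read 11.58, 11.68 and 11.95 against 10.62, 10.93 and 11.46 (-0.77 ± 0.14, adjusted p = 0.000542). With Ethe1, 3 more enzymes that handle sulfide, thiosulfate or sulfite were lower: Mpst (-0.57 ± 0.11, adjusted p = 0.00175), Suox (-0.61 ± 0.15, adjusted p = 0.00865) and Tst (-0.35 ± 0.10, adjusted p = 0.0283). The folate enzyme Aldh1l1 was the remaining lower member (-0.37 ± 0.10), and Ahcy, which splits S-adenosylhomocysteine, was higher (0.38 ± 0.10). Of 20 genes of branched-chain amino acid breakdown 2 were lower, Mccc2 (-0.52 ± 0.13, adjusted p = 0.0104) and Pcca (-0.39 ± 0.11, adjusted p = 0.0211), and of 13 urea cycle genes 1 was higher, Slc25a13 (0.36 ± 0.10, adjusted p = 0.0237), and 1 lower, Slc25a15 (-0.38 ± 0.12, adjusted p = 0.0498). The share called was 10% in the branched-chain list and 15.4% in the urea cycle list, against 10.4% of all genes. In the beta-actin fit Cbs, Bhmt and Ethe1 were called. Mpst (adjusted p = 0.195), Suox (0.32), Tst (0.297), Aldh1l1 (0.0705), Ahcy (0.723), Mccc2 (0.637), Pcca (0.632), Slc25a13 (0.301) and Slc25a15 (0.582) were not. Without the 2 arrays of low range Tst (adjusted p = 0.0564), Ahcy (0.146), Mccc2 (0.14), Pcca (0.161), Slc25a13 (0.0812) and Slc25a15 (0.161) were not called.

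Gluconeogenesis was higher in 5 of 16 genes and lower in 0. Pcx, the pyruvate carboxylase that starts the pathway, read 8.48, 8.86 and 9.08 on pellets and 9.09, 9.43 and 9.59 on the chimpanzee diet (0.55 ± 0.11, adjusted p = 0.00213). The regulators Foxo1 (0.79 ± 0.15, adjusted p = 0.000832) and Hnf4a (0.59 ± 0.11, adjusted p = 0.000809) did not overlap between the diets either. Pck1, the rate-limiting enzyme (0.57 ± 0.14, adjusted p = 0.00735), and Slc37a4, the carrier of glucose 6-phosphate (0.52 ± 0.14, adjusted p = 0.0159), were the others. With the beta-actin covariate 0 of the 16 passed, with adjusted p of 0.154 (Foxo1) to 0.387 (Pck1), and Slc37a4 also missed the threshold without the 2 arrays of low range (0.0989).

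In glycolysis, fructose and glycogen metabolism 3 of 23 genes were higher and 4 lower. Beside Ppp1r3b, the liver glycogen synthase Gys2 (0.47 ± 0.12) and Khk, the first enzyme of fructose breakdown (0.47 ± 0.12, adjusted p = 0.0135), were higher. Beside Ppp1r3c, 2 enzymes of the pentose phosphate pathway were lower, Pgd (6.54, 7.14 and 7.40 against 5.14, 5.94 and 6.31, -1.28 ± 0.21, adjusted p = 0.000233) and Taldo1 (-0.46 ± 0.12, adjusted p = 0.0107), as was the glycolytic Pgam1 (-0.50 ± 0.14, adjusted p = 0.0258). Ppp1r3b and Pgd were called in the beta-actin fit, but not Gys2 (adjusted p = 0.151), Khk (0.279), Ppp1r3c (0.0628), Taldo1 (0.599) and Pgam1 (0.742), of which Taldo1 (0.0903) and Pgam1 (0.156) were not called without the 2 arrays of low range either.

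Insulin and growth hormone signalling was even, 4 higher and 4 lower of 25. Of the feedback inhibitors induced by growth hormone, 2 were lower. Socs2 read 6.57, 7.59 and 8.00 on pellets and 5.46, 6.02 and 6.26 on the chimpanzee diet (-1.49 ± 0.31, adjusted p = 0.00247), and Cish read 4.99, 5.73 and 6.65 against 4.68, 4.85 and 4.97 (-0.96 ± 0.21, adjusted p = 0.00466). Pik3r1, a subunit of the insulin-responsive kinase, was higher (0.59 ± 0.13, adjusted p = 0.00469), as were Mup10 and Mup5, the latter near the filter level (0.55 ± 0.14). None of these 5 genes was called with the beta-actin covariate (adjusted p = 0.201 for Socs2, 0.126 for Cish, 0.212 for Pik3r1, 0.179 for Mup10 and 0.368 for Mup5).

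Drug metabolism was called in 6 of 30 genes, 4 higher and 2 lower. Of 3 receptors of foreign compounds 2 were higher, Nr1i3 (CAR) from 7.61, 7.72 and 8.11 on pellets to 8.52, 8.79 and 9.14 on the chimpanzee diet (1.05 ± 0.13, adjusted p = 6.55e-06) and Nr1i2 (PXR) from 4.13, 4.33 and 4.46 to 4.73, 4.95 and 5.27 (0.67 ± 0.12, adjusted p = 0.000587). The third, Ahr, was not called (-0.03 ± 0.16, adjusted p = 0.944). Cyp2b10, a known target of CAR, was lower, as given above, and so was Cyp2c55, near the filter level (-0.74 ± 0.14, adjusted p = 0.0008). Cyp2c38 (0.68 ± 0.10, adjusted p = 9.16e-05) was higher. Alas1, the first enzyme of heme synthesis, read 7.24, 8.67 and 9.73 against 9.28, 10.11 and 10.66 (1.33 ± 0.32, adjusted p = 0.00732, but 0.0597 without the 2 arrays of low range), with wide and overlapping ranges. Nr1i2 (adjusted p = 0.104), Cyp2c55 (0.151) and Alas1 (0.0783) missed the threshold with the beta-actin covariate.

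Conjugation enzymes were lower in 5 of 30 cases and higher in 2. The glutathione transferases Gstm4 (6.85, 7.14 and 7.60 against 5.33, 6.17 and 6.24, -1.23 ± 0.16, adjusted p = 1.62e-05) and Gstm6 (-1.04 ± 0.17, adjusted p = 0.0003) were lower, as was Ugdh, which makes the glucuronic acid donor (-0.93 ± 0.19, adjusted p = 0.00194). The sulfotransferase Sult1d1 was higher (0.86 ± 0.13, adjusted p = 0.000111). Of 17 NRF2 antioxidant targets 4 were lower and 1 higher. Srxn1, which repairs peroxiredoxins (-0.49 ± 0.11, adjusted p = 0.00587), and Gsr, glutathione reductase (-0.37 ± 0.10, adjusted p = 0.0132), were lower, as was Nqo1 near the filter level (-0.36 ± 0.09, adjusted p = 0.0146), and Osgin1 was higher (0.76 ± 0.23, adjusted p = 0.0329). Of the genes in this paragraph, Gstm4 was called in the beta-actin fit, and Gstm6 (adjusted p = 0.132), Ugdh (0.408), Sult1d1 (0.0545), Srxn1 (0.373), Gsr (0.887), Nqo1 (0.235) and Osgin1 (0.492) were not. Gsr also missed the threshold without the 2 arrays of low range (0.0914). The median of the NRF2 list was -0.18 but 0.0829 with the beta-actin covariate.

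Vitamin metabolism was called in 9 of 23 genes, 6 lower and 3 higher. Besides Rdh11, Stra6l, a receptor for the retinol carrier protein, read 7.82, 8.17 and 8.74 on pellets and 6.44, 7.10 and 7.53 on the chimpanzee diet (-1.21 ± 0.16, adjusted p = 1.8e-05). Rdh9, another retinol dehydrogenase, was higher, from 8.59, 8.90 and 9.28 to 9.53, 10.16 and 10.45 (1.12 ± 0.16, adjusted p = 4.61e-05). Neither gene overlapped. Gulo, the last enzyme of vitamin C synthesis, which mice have kept, read 9.06, 9.42 and 9.66 against 9.54, 10.18 and 10.29 (0.63 ± 0.11, adjusted p = 0.000334), and Slc23a1, a vitamin C transporter, was lower (-0.61 ± 0.15, adjusted p = 0.00867). Heme and iron genes were called in 5 of 24 cases, 3 higher and 2 lower. Next to Alas1, Blvrb, of heme breakdown (0.57 ± 0.10, adjusted p = 0.000479), and Tfrc, the transferrin receptor (0.81 ± 0.23), were higher, and Ppox, of heme synthesis, was lower near the filter level (-0.52 ± 0.09, adjusted p = 0.000428). Id3, a target of the iron-sensing BMP pathway, read 5.60, 7.22 and 7.84 against 5.06, 5.62 and 5.93 (-1.40 ± 0.29, adjusted p = 0.00214), with overlap. With the beta-actin covariate Rdh11, Stra6l, Rdh9 and Blvrb were called, and Gulo (adjusted p = 0.177), Slc23a1 (0.118), Tfrc (0.0635), Ppox (0.105) and Id3 (0.408) were not.

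Acute phase genes were called in 3 of 28 cases (10.7%), close to the 10.4% of all genes. A pair of cytokine receptors, Il1r1 (5.51, 5.74 and 5.99 on pellets, 6.12, 7.11 and 7.39 on the chimpanzee diet, 1.16 ± 0.24, adjusted p = 0.00197) and Il6ra (0.64 ± 0.13, adjusted p = 0.00274) were higher, and the acute phase protein Orm2 was lower near the filter level (-0.50 ± 0.13, adjusted p = 0.0155). In the beta-actin fit Il1r1 (adjusted p = 0.187), Il6ra (0.523) and Orm2 (0.505) were not called, nor was Orm2 without the 2 arrays of low range (0.0851). In 3 lists 0 genes were called by limma. Among 47 respiratory chain subunits the members of smallest p were Cox4i1 (0.19 ± 0.09, adjusted p = 0.217) and Ndufs8 (-0.20 ± 0.10, adjusted p = 0.236), and 8 were higher after cyclic loess or quantile normalization, Cox4i1 among them (adjusted p = 0.00367 after cyclic loess). Among 31 ribosomal proteins they were Rps27 (0.14 ± 0.07, adjusted p = 0.206) and Rpl14 (-0.16 ± 0.10, adjusted p = 0.395), and among 18 genes of cell division Ccnb2 (-0.32 ± 0.11, adjusted p = 0.0622) and Mki67 (-0.33 ± 0.12, adjusted p = 0.0893), of which both passed after cyclic loess (adjusted p = 0.029 and 0.0461), all but Cox4i1 and Ndufs8 near the filter level.

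Called markers of other liver cells are read against the 10.4% of all genes that were called, 2.93% higher and 7.43% lower. The share called was 38.5% of macrophage, 18.2% of endothelial, 9.09% of stellate cell and 22.2% of lymphocyte markers. It was 33.3% of only 3 red blood cell markers. In whole tissue, fewer cells of a type and less RNA per cell cannot be told apart. Of 13 Kupffer cell and macrophage markers 5 were lower and 0 higher (median -0.68), Cd68 by -0.68 ± 0.13, Csf1r by -0.69 ± 0.20, Clec4f by -0.78 ± 0.23, C1qb by -0.88 ± 0.27 and Vsig4 by -1.16 ± 0.38, while Adgre1 (-0.14 ± 0.12) was not called. The mean of the 13 ran from 4.75 to 6.06 on the chimpanzee diet and from 5.63 to 6.46 on pellets. That count was 2 after cyclic loess, 4 without the 2 arrays of low range and 1 (Cd68) with the beta-actin covariate. It was 1 without chimpanzee batch 1 replicate 3, chimpanzee batch 2 replicate 1, pellet batch 2 replicate 2 or pellet batch 2 replicate 3, 2 without chimpanzee batch 1 replicate 2 or pellet batch 1 replicate 3, and 3 without chimpanzee batch 1 replicate 1. Of 11 endothelial markers 2 were lower (Cdh5, -0.42 ± 0.12, and Oit3, -0.59 ± 0.14), of 11 stellate cell markers 1 (Col3a1, -1.22 ± 0.26, adjusted p = 0.00302), of 9 lymphocyte markers 1 lower (Ighm, -1.18 ± 0.17, adjusted p = 6.32e-05) and 1 higher (Cd4, 0.28 ± 0.08), and of 3 red blood cell markers 1 (Car2, -0.59 ± 0.17). Of the called markers outside the macrophage list, Ighm was called with the beta-actin covariate and Cdh5 (adjusted p = 0.217), Oit3 (0.328), Col3a1 (0.282), Cd4 (0.506) and Car2 (0.448) were not, and Cdh5 (0.184), Oit3 (0.0521) and Car2 (0.162) were not called without the 2 arrays of low range. None of 5 neutrophil markers, 3 bile duct markers and 7 markers of pancreas, adipose tissue and muscle was called by limma, and the neutrophil mean lay between 3.06 and 3.68. The part of immune and other cells in the lower interferon-induced genes was not tested.

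The cafeteria and fast food diets give a second reference for the chimpanzee diet, in a comparison that shares the chimpanzee mice with the one above. Against the mean of these diets, 423 of 13385 genes (3.16%) differed, and 36 of the 115 genes named by rule did. The count of 36 fell to 3 with the beta-actin covariate and to 13 without the 2 chimpanzee arrays of low range. Some genes kept a difference of similar size against either reference. Cyp2b10 averaged 4.40 on the chimpanzee diet, 7.07 on pellets, 6.92 on the cafeteria diet and 6.65 on fast food (-2.39 against their mean, adjusted p = 1.4e-06), and Apoa4 averaged 10.81, 9.78, 9.55 and 9.45 in the same order (1.31, adjusted p = 1.9e-05). Rgs16 averaged 8.49 against 6.30, 5.56 and 6.08 (2.67, adjusted p = 0.004), Gulo 10.05 against 9.42, 9.44 and 9.36 (0.65, adjusted p = 0.00037) and Cyp17a1 6.96 against 4.34, 5.36 and 4.51 (2.02, adjusted p = 0.0093). In these 5 genes the means of all 3 other diets lay on the same side of the chimpanzee mean. For Cyp17a1, 1 cafeteria mouse read 8.47, above the highest chimpanzee mouse (7.85). Against pellets, Rgs16, Gulo and Cyp17a1 were not called with the beta-actin covariate, as given above.

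In other genes the pellet mice were the ones set apart from all 3 remaining diets. Usp2 averaged 4.65 on pellets and 6.99, 7.19 and 6.86 on the chimpanzee, cafeteria and fast food diets (-0.04 against the mean of the last 2, adjusted p = 0.95). Ethe1 averaged 8.83 and 7.02, 7.06 and 7.02 (-0.02, adjusted p = 0.97), Pex11a 6.58 and 7.93, 7.69 and 7.98 (0.10, adjusted p = 0.73), Nr1d1 6.29 and 4.84, 4.96 and 4.82 (-0.05, adjusted p = 0.94) and Aqp8 9.87 and 7.68, 7.67 and 8.68 (-0.50, adjusted p = 0.12). Of the 17 enzymes of cholesterol synthesis, Sqle averaged 8.02 on pellets and 5.56, 6.34 and 5.54 (-0.38, adjusted p = 0.73), while Sc5d was lower on the chimpanzee diet against both references (10.35 on pellets, 8.90 on the chimpanzee diet, 9.55 and 9.66 on the others, -0.71, adjusted p = 0.042).

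Cyp4a14 was called in opposite directions against the references. It averaged 3.26 on pellets, 6.19 on the chimpanzee diet, 8.40 on the cafeteria diet and 9.43 on fast food, so the chimpanzee mice lay above pellets (2.93 ± 0.41) and below the others (-2.72, adjusted p = 0.00012). Orm2 had the reverse order, with 4.13 on pellets, 3.63 on the chimpanzee diet and 3.12 and 3.14 on the others (0.50 against the human diets, adjusted p = 0.019), all near the filter level.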

How the data were processed

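Livers of 24 mice were hybridised to Affymetrix mouse whole-genome arrays, 1 per mouse. The authors made the deposited log2 values with rma (background correction, quantile normalization, summarization). The 90th percentile of these values still ran from 5.67 (cafeteria batch 2 replicate 3) to 6.62 (fast food batch 1 replicate 3). The arrays as deposited thus did not share 1 distribution. Brain arrays were not analysed here. Of 45101 probe sets, 34945 had 1 gene symbol in the platform annotation, 932 had several and 9160 none. A gene was the probe set of highest mean above the array median (3.147) in at least 6 of 24 arrays, which left 13385 genes. Probe sets ending in _x_at or _s_at may read related genes. Differences came from limma 3.58.1 (R 4.3.3) with batch as covariate over all 24 mice and Benjamini-Hochberg adjustment at 0.05, without a replicate block. Array measures were compared by exact permutation within batches. Named genes were the 12 largest increases and decreases, and up to 4 called members of smallest p per list (2 where none was called). Others were named after their values were seen, and members, lists and tests were chosen with earlier results of these data known. The code was tested on simulated data. Promoter windows were those of RefSeq, GRCm38.p6. The number of arrays limits precision.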

Additional observations from a re-analysis of the deposited data

Results flagged for a closer look

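In 230 groups of 6 mice, 1 mouse stood apart. Nr1i3, the receptor CAR, read 8.11 in pellet batch 1 replicate 2, with 7.796 in the nearest pellet mouse and 7.61 at the other end of the group, so that the gap took 0.627 of the range against a critical value of 0.625. The critical value is made to be passed in about 1 in 20 groups of like values. Each group here mixed mice of 2 batches, so that rate may not hold for these 230 groups.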

How the results depend on the processing

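Of 109 called genes named by rule, all 109 kept their sign under every alternative run and 101 stayed past the threshold without any 1 mouse. Against 1387 calls, limma gave 472 with batch left out, 1060 in batch 1 alone and 25 in batch 2 alone, each batch with 3 mice per diet. It gave 211 with the beta-actin difference as covariate, 2342 with array weights and 802 without the 2 chimpanzee arrays of low range. Without 1 mouse it gave 1007 to 1437. Against the human diets, the 36 called named genes became 11 with batch left out, 24 in batch 1 alone and 1 in batch 2 alone. They became 3 with the beta-actin covariate, 62 with array weights, 13 without the 2 arrays of low range and 26 to 40 without 1 mouse. The beta-actin difference was 0.245 in batch 1 and 0.406 in batch 2, where 3 against 3 mice cannot pass. The replicate numbers did not pair the mice (2 of 6 pairs correlated above 0.1, from -0.0717 to 0.179, and 2 of 6 mice correlated best with their own number), and the fit with the replicate block gave 1295 calls and 40 against the human diets. Where leaving out 1 mouse ended the call of a named gene, the adjusted p was as follows. Without chimpanzee batch 1 replicate 1, it was 0.0777 for Osgin1, 0.095 for Slc16a1 and 0.0896 for Slc25a15. Without chimpanzee batch 1 replicate 2, it was 0.0535 for Atf4, 0.0878 for Ddit3, 0.0651 for Slc16a1 and 0.074 for Slc25a15. Without chimpanzee batch 1 replicate 3, it was 0.0585 for Ddit3, 0.0779 for Osgin1 and 0.0527 for Slc25a13. Without chimpanzee batch 2 replicate 1, it was 0.0546 for Pcca and 0.0927 for Slc25a15. Without chimpanzee batch 2 replicate 2, it was 0.0582 for Atf4, 0.055 for Osgin1, 0.0529 for Pcca, 0.104 for Slc16a1, 0.0702 for Slc25a13 and 0.0798 for Slc25a15. Without chimpanzee batch 2 replicate 3, it was 0.0733 for Osgin1 and 0.114 for Slc25a15. Without pellet batch 1 replicate 1, it was 0.0548 for Atf4, 0.0752 for Ddit3, 0.0532 for Orm2, 0.0708 for Osgin1, 0.0574 for Pcca, 0.0941 for Slc16a1 and 0.129 for Slc25a15. Without pellet batch 1 replicate 2, it was 0.059 for Ddit3, 0.0705 for Osgin1 and 0.0514 for Slc25a13. Without pellet batch 1 replicate 3, it was 0.0601 for Atf4, 0.0534 for Ddit3, 0.0513 for Orm2, 0.0525 for Osgin1, 0.0611 for Slc16a1 and 0.0686 for Slc25a15. Without pellet batch 2 replicate 1, it was 0.0505 for Slc25a13 and 0.0814 for Slc25a15. Without pellet batch 2 replicate 2, it was 0.071 for Slc16a1, 0.0586 for Slc25a13 and 0.0597 for Slc25a15. Without pellet batch 2 replicate 3, it was 0.0528 for Atf4, 0.0827 for Osgin1, 0.0597 for Pcca, 0.0653 for Slc16a1 and 0.129 for Slc25a15. The cause of these changes was not tested.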
